A study of Mus musculus with 2 samples.

Results

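The cyclins, the cyclin-dependent kinases (CDKs), the Cdc25 phosphatases, the kinase Wee1 and the E2f transcription factors were taken from the deposited count table by a pattern of gene symbols that holds no measured value. The pattern selected 54 of 30744 symbols, each present as 1 gene model. Of these, 51 reached 20 reads summed over the libraries and count as measured. Ccna1, Ccnb3 and Cdk15 were below that minimum. The series compared 1 library from the normal kidney of an animal of genotype WT, which had received no doxycycline, with 1 library from a kidney tumour of an animal of genotype Tet-OSKM/mPer2-luc that had received it, both on a C57BL/6 x DBA/2 F1 background. In the second genotype, doxycycline acts through the M2rtTA activator at the Rosa26 locus to switch on the reprogramming factors Oct4, Sox2, Klf4 and c-Myc, and a luciferase reporter is joined to the clock gene Per2. Chimeras were produced, per the labels' protocols, from embryonic stem cells that carry these alleles, so a tissue may hold cells of both origins. The same protocol text stands with both libraries, and it does not say how far either animal was chimeric. Age, sex and the length of treatment are not given in the sources used here. The series title asks about the circadian clock in these tumours, and the comparison described here is tumour against normal kidney for the cell cycle genes named above.

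Cyclins are regulatory subunits that bind and activate CDKs, and the levels of several of them rise and fall during each division. D-type cyclins with CDK4 and CDK6 act in G1 on the retinoblastoma protein, which frees activator E2F factors to switch on genes of S phase, among them those of E-type cyclins. Cyclin E and cyclin A with CDK2 act at the start and during S phase, and cyclins A and B with CDK1 act at entry into mitosis, where WEE1 inhibits CDK1 and CDC25 phosphatases remove that inhibition. Other members of both families serve transcription and RNA processing in dividing and resting cells alike. Most epithelial cells of the adult nephron are not dividing.

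The normal library had 29258428 reads over exons and the tumour library 20836819. Pou5f1 (Oct4), one of the switched-on factors, had 0 and 11358 reads, as the labels of the libraries have it, and reads from its transgene and from the mouse's own gene cannot be told apart. With 1 library per group there is no replicate check, so every difference below compares these 2 libraries, not the conditions. Ratios are of counts scaled by TMM, a method that fits the libraries' relative size on genes of moderate ratio, and CPM values are counts scaled to that size. The 95% interval given with a ratio covers the error of counting alone. It treats each read as an independent molecule, so it is too narrow where reads are copies made by PCR. Calls of higher or lower, always for the tumour library, needed a 2-fold difference and an interval that left out 1. Where a pair of values is given, the normal library comes first. Levels of different genes are compared only in the deposited RPKM values, which are scaled to transcript length and to the total read number in each library's file header. In bulk tissue, fewer cells of a type and less RNA per cell cannot be told apart.

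The widest margins in the tumour library were those of Ccnf, Ccnb1, E2f7, Ccne1, Cdk1, Cdc25c, Ccna2, E2f8 and Ccnb2, each at least 32-fold higher. Of the D-type cyclins 1 was higher and 2 neither, and the kinases and cyclins of transcription ranged from 1.59-fold lower to 3.73-fold higher. Of 51 measured members, 29 were called higher (31.2% of all 16326 measured symbols were), 2 lower (28.0% of all symbols) and 20 neither. The members' median log2 ratio was 1.21, and that of all measured symbols was 0.08. At least 8-fold higher were 13 members, against 12.2% of all measured symbols, and at least 32-fold higher were 9 members, against 4.83%. With RPKM plus 0.1, E2f7 and E2f8 fell short of 32-fold, at log2 ratios of 4.68 and 4.59. No member was at least 8-fold lower (9.16% of all symbols) or 32-fold lower (3.23%). The members called lower were Cdk18 and Ccng1. All 29 higher calls were kept under 5 other ways of scaling or counting, whereas Ccng1 lost its call under 3 of them. Those 3 (plain CPM, header totals and RPKM plus 0.1) raised the median log2 ratio of all symbols by 0.56, 0.35 and 0.32. The remaining settings, DESeq2 size factors and summed models, moved it by -0.007 and 0.001. The 5 settings therefore put lower calls at risk and hardly tested higher calls close to 2-fold.

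Other ways of scaling moved the background along with the members. With plain CPM 34 members were higher and 1 lower (42.1% and 20.2% of all symbols), header totals gave 31 and 1 (37.9% and 22.7%), and RPKM plus 0.1 also 31 and 1 (36.4% and 21.8%). With DESeq2 size factors 29 were higher and 2 lower (31.1% and 28.1%). At 1.5-fold 32 were higher and 7 lower (38.4% and 35.1%), and at 4-fold 19 and 1 (18.5% and 15.8%). A minimum of 1 read gave 30 and 2 (27.4% and 22.8%), and a minimum of 100 reads gave 29 and 1 (28.8% and 28.3%).

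**Figure D1:**
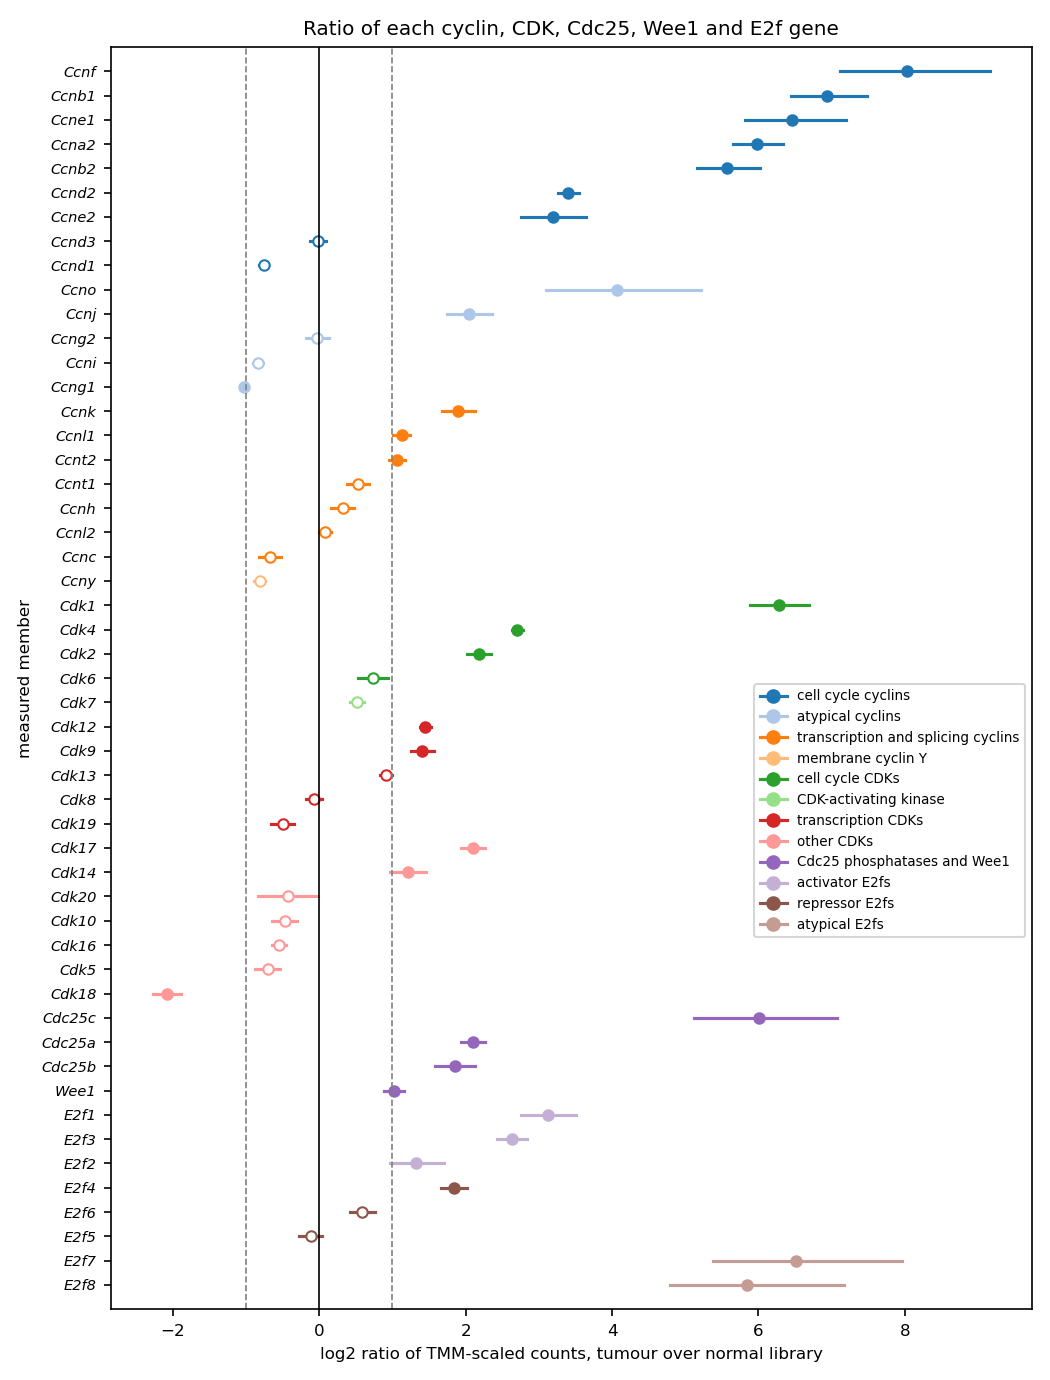
Tumour-over-normal ratio of TMM-scaled counts on a log2 scale (x axis), for each of 51 measured members (y axis), ordered within role groups that are marked by colour. Points are ratios, lines are 95% counting intervals, filled points are called members and dashed lines mark 2-fold, so that Ccnf lies farthest to the right at 8.04 and Cdk18 farthest to the left at -2.08.

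**Figure D2:**
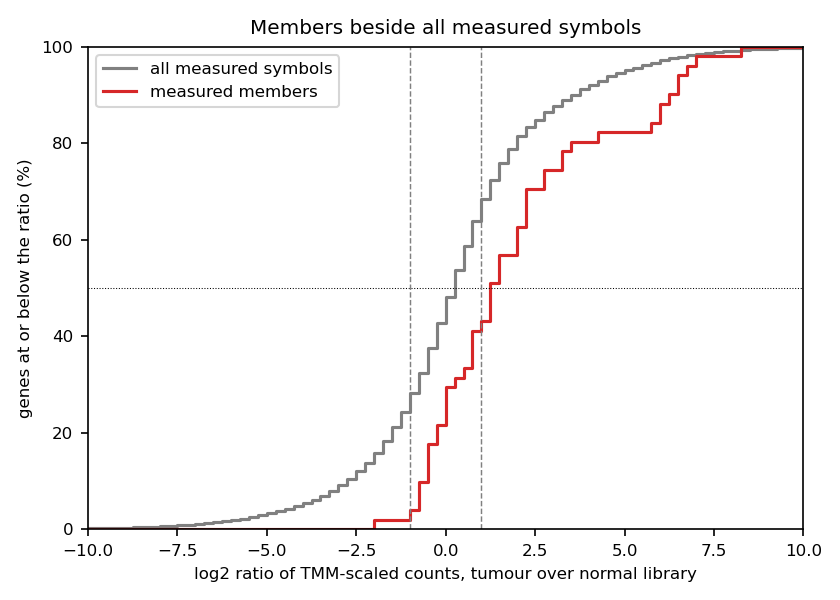
Cumulative share of genes (y axis, percent) at or below each tumour-over-normal log2 ratio of TMM-scaled counts (x axis), for 51 measured members and 16326 measured symbols. Dashed lines mark 2-fold and the dotted line marks the median, which is 1.21 for the members and 0.08 for all symbols.

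Mitotic cyclins stood below 1 RPKM in the normal library and were among the most abundant members of the tumour library. Ccnb1 (chromosome 13), the main cyclin partner of CDK1 in mitosis, had 33 and 4244 reads, or 0.354 and 55.5 RPKM. It was 123-fold higher (interval 87.2 to 178). Of the distinct 50-base stretches of its GENCODE M21 transcripts, 23.4% also occur in transcripts of other genes, above all the pseudogene Ccnb1-ps, so reads may be shared. Ccnb2 (chromosome 9), the second B-type cyclin, had 47 and 2344 reads, or 0.759 and 46.1 RPKM, and was 47.6-fold higher (35.7 to 64.9). The intervals of these 2 ratios do not overlap. Within the normal library Ccnb2 held 68.2% of the RPKM of the B-type cyclins, and within the tumour library Ccnb1 held 54.6%. The normal share rests on 80 reads, of which Ccnb2 held 58.8% (interval 47.2 to 69.6). Ccnb3, a B-type cyclin of meiotic germ cells, had 0 and 6 reads.

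Ccna2 (chromosome 3), the A-type cyclin of dividing somatic cells, had 73 and 4855 reads, or 0.645 and 52.2 RPKM, and was 63.4-fold higher (50.4 to 81.1). Exons of Exosc9 (721 and 1658 reads), on the opposite strand, cover 12.5% of its exon bases, and no source used here states the strand setting of the counts. Ccna1, its germ line paralog, had 3 and 8 reads, so 99.7% of A-type RPKM in the tumour library was Ccna2. Ccnf (chromosome 17), the F-box subunit of a ubiquitin ligase that is not known to activate a CDK, had 9 and 2475 reads, or 0.0723 and 24.2 RPKM. Its ratio of 262 (138 to 574) was the largest of the measured members, and its interval overlaps that of Ccnb1. On the scale of RPKM plus 0.1 its log2 ratio was 7.14, against 8.04 for TMM-scaled counts.

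Both E-type cyclins, the partners of CDK2 at the start of S phase, were higher (31.2% of all measured symbols were), and by different amounts. Ccne1 (chromosome 7) had 19 and 1757 reads, or 0.242 and 27.2 RPKM, and was 88.2-fold higher (56.3 to 147). Ccne2 (chromosome 4) had 49 and 468 reads, or 0.391 and 4.55 RPKM, and was 9.11-fold higher (6.78 to 12.5), while Ints8, which overlaps 17.4% of its exon bases on the opposite strand, had 884 and 2022 reads. Ccne2 was the more abundant of the pair in the normal library, with 61.8% of their summed RPKM, and Ccne1 in the tumour library, with 85.7%.

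The D-type cyclins, which link growth factor signals to CDK4 and CDK6, differed in direction and size. Ccnd1 (chromosome 7) had 5365 and 3323 reads, or 35.0 and 26.4 RPKM, and was 1.69-fold lower (1.62 to 1.77), short of 2-fold under each scaling tried. A gene on the opposite strand overlaps 23.4% of its exon bases. Ccnd2 (chromosome 6) had 405 and 4492 reads, or 1.74 and 23.5 RPKM, and was 10.6-fold higher (9.56 to 11.7). Ccnd3 (chromosome 17) had 1407 and 1457 reads, or 17.6 and 22.3 RPKM, with a log2 ratio of -0.02 that turned to 0.54 with plain CPM. In the normal library Ccnd1 held 64.4%, Ccnd3 32.4% and Ccnd2 3.20% of the summed RPKM of the D-type cyclins. In the tumour library the shares were 36.6%, 30.8% and 32.5%, so that the D-type cyclins stood at similar levels per length of the deposited models. Shares of reads there, without division by length, were 35.8% for Ccnd1, 15.7% for Ccnd3 and 48.4% for Ccnd2. A share of RPKM within 1 library does not depend on the scaling between libraries, but it does depend on the transcript lengths used.

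Of the 4 CDKs of the cell cycle, 3 were called higher, against 31.2% of all measured symbols. The order of the 4 ratios was Cdk1, Cdk4, Cdk2 and Cdk6. Cdk1 (chromosome 10), the kinase of mitotic entry, had 54 and 4388 reads, or 0.469 and 46.4 RPKM, and was 77.5-fold higher (59.3 to 103). Its interval overlaps those of Ccna2 and Ccnb1, its partners. Cdk4 (chromosome 10) had 1575 and 10780 reads, or 29.1 and 243 RPKM, and was 6.53-fold higher (6.19 to 6.89). It was the most abundant member per length in the tumour library and the 4th in the normal library. Tspan31, on the opposite strand over 19.7% of the exon bases of Cdk4, had 2647 and 1559 reads. Cdk2 (chromosome 10) had 350 and 1663 reads, or 3.57 and 20.7 RPKM, and was 4.53-fold higher (4.04 to 5.10). Cdk6 (chromosome 5), the paralog of Cdk4, had 321 and 560 reads, or 2.99 and 6.36 RPKM. Its ratio was 1.66 (1.45 to 1.92), and on the 3 scales where Ccng1 lost its call it passed 2-fold, at log2 ratios of 1.29 (plain CPM), 1.09 (header totals) and 1.06 (RPKM). Cdk4 held 80.6% and 76.8% of the RPKM of these kinases, while Cdk1 went from 1.30% to 14.7% and Cdk6 from 8.27% to 2.01%.

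**Figure D3:**
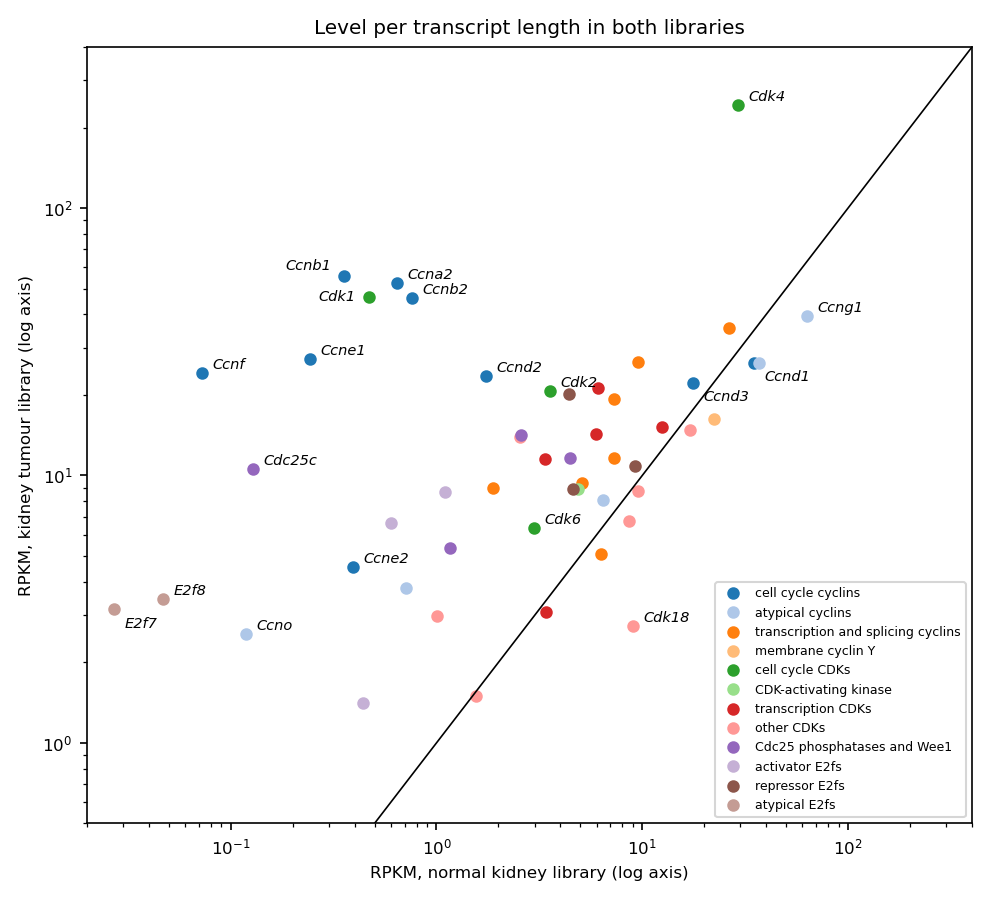
Deposited RPKM of each measured member in the normal (x axis) and the tumour library (y axis), both log axes, coloured by role group, with equal RPKM on the black line. RPKM are scaled by the authors' header totals, and Cdk4 is highest in the tumour library at 243 RPKM while Ccng1 is highest in the normal library at 62.9 RPKM.

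**Figure D4:**
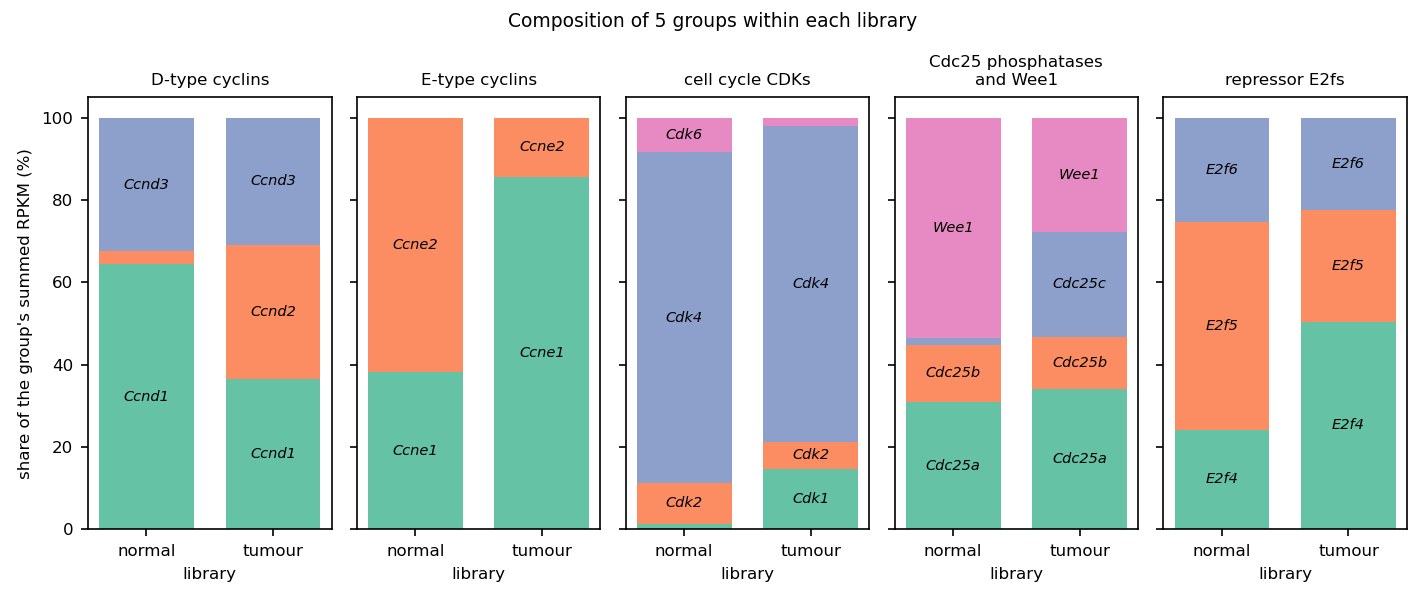
Share of each gene in its group's summed RPKM (y axis, percent) within the normal and the tumour library, for 5 groups. Ccnd2 widens from 3.20% to 32.5% of the D-type cyclins, Ccne1 from 38.2% to 85.7% of the E-type cyclins and Cdc25c from 1.54% to 25.4% of the Cdc25 and Wee1 genes.

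Ratios of a cyclin to its kinase, in RPKM within a library, separate the pairs further. Ccnb1 stood at 0.755 times Cdk1 in the normal and 1.20 times in the tumour library, and Ccna2 at 1.38 and 1.13 times Cdk1. Against Cdk2, Ccna2 went from 0.180 to 2.52 and Ccne1 from 0.0677 to 1.32. Ccnd1 went from 1.20 times the RPKM of Cdk4 to 0.109 times, and Ccnd2 from 0.0597 times to 0.0967 times. These are ratios of transcript levels and carry no measure of protein.

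The regulators of CDK1 phosphorylation within the symbol pattern were higher for 4 of 4 genes, against 31.2% of all measured symbols. Cdc25c, the phosphatase of mitotic entry, had 10 and 675 reads, or 0.128 and 10.6 RPKM, and was 64.4-fold higher (34.8 to 135). A gene on the opposite strand overlaps 12.7% of its exon bases. Cdc25a, which also acts on CDK2 at the start of S phase, had 376 and 1694 reads and was 4.30-fold higher (3.84 to 4.82). Cdc25b had 145 and 548 reads and was 3.61-fold higher (2.997 to 4.36). Wee1, the inhibitory kinase and a gene that the circadian clock is known to control, had 616 and 1308 reads, or 4.47 and 11.6 RPKM, and at 2.03-fold (1.84 to 2.23) lay just past the 2-fold line. Wee1 held 53.6% and 27.8% of the group's RPKM. Between the libraries, Cdc25c relative to Wee1 differed 31.8-fold and Cdc25a relative to Wee1 2.12-fold. Pkmyt1, an inhibitory kinase outside the symbol pattern, had 20 and 279 reads and was 13.3-fold higher (8.45 to 22.1).

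All 3 activator E2fs, which drive S phase genes, were higher, against 31.2% of all measured symbols. E2f1 had 66 and 603 reads, or 0.598 and 6.65 RPKM, and was 8.72-fold higher (6.75 to 11.4). E2f3 had 226 and 1468 reads and was 6.20-fold higher (5.38 to 7.16), an interval that overlaps that of E2f1. E2f2 had 86 and 226 reads and was 2.51-fold higher (1.95 to 3.25), below both. E2f3 had the largest share of the activators' RPKM in both libraries, 51.5% and 51.9%.

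The atypical E2fs, which repress E2F targets late in S phase, had fewer than 10 reads each in the normal library. E2f7 had 6 and 574 reads, or 0.0272 and 3.17 RPKM, and was 91.3-fold higher (41.7 to 250). E2f8 had 7 and 421 reads, or 0.0471 and 3.45 RPKM, and was 57.4-fold higher (27.6 to 144). The log2 ratios of E2f7 and E2f8 were 6.51 and 5.84, and with RPKM plus 0.1, a pseudocount above both normal levels, they were 4.68 and 4.59. Of the repressor E2fs, E2f4, the main E2F of resting cells, was 3.58-fold higher (3.18 to 4.04), with 352 and 1321 reads. E2f6, a repressor that works with polycomb proteins, had a log2 ratio of 0.59, which passed 2-fold with plain CPM at 1.15, and E2f5 one of -0.12 that turned to 0.44 with plain CPM. E2f5 led this group in the normal library with 50.4% of its RPKM, and E2f4 in the tumour library with 50.5%.

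Letters of known cell cycle elements were searched in the promoters of the members, because the members with the widest ratios include known targets of these elements. RefSeq promoter windows (build GRCm38.p6) of 300 bases, 250 before and 50 after the start, were found for 41 of 54 members, and for 13 none was used (Ccna2, Ccnd1, Ccnd2, Ccne2, Ccnh, Ccny, Cdc25c, Cdk17, Cdk19, Cdk5, E2f4, E2f5 and Wee1). Searched on both strands were the E2F letters TTTGGCGC, TTTCCCGC and TTTCGCGC, the CHR (cell cycle genes homology region) letters TTTGAA and TTCGAA, and CCAAT, the core of the NF-Y element. No motif of one set lies within a motif of another. An E2F match stood in 6 of 22 windows of members called higher (Cdc25a, Cdk1, Cdk2, E2f2, E2f3 and E2f7), in 0 of 14 called neither and in 0 of 2 called lower, against 1.84% of all 32851 windows in the table. CHR letters stood in 6 of 22 (27.3%), 1 of 14 and 0 of 2, near the 19.2% of all windows. CCAAT stood in 15 of 22, 4 of 14 and 2 of 2, against 37.4%. CHR and CCAAT together stood in 6 of the 22 (Ccnb2, Ccnf, Cdc25b, Cdk1, E2f3 and E2f8), in none of the other measured members with a window, and in 7.52% of all windows. The zeros for E2F and for the pair rest on 14 windows called neither and 2 called lower. At 1.84% and 7.52%, so few windows would hold few matches or none, so these zeros set no contrast. For 36 of the 41 windows the start lay within 100 bases of the start of the counted gene model. It lay 555 bases away for E2f8, 547 for Ccnt1, 466 for E2f1, 425 for Cdk8 and 226 for Cdk6. The median GC content was 66.8% in the windows of members called higher, 63.5% in those called neither and 52.7% in all windows, and its part in these counts was not tested.

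The 150 bases before the start are shown for 8 members, 5' to 3' on the gene's strand, with matches in capitals (ATTGG is CCAAT read on the other strand, and the last match of E2f3 is an E2F match read that way). Ccnb1, Ccnb2, Cdk1 and Ccnf are shown as mitotic genes with CCAAT boxes, E2f3 and Cdc25a as genes with an E2F match, Ccne1 as a gene 88.2-fold higher with no match in this window, and Ccng1 as a gene called lower that holds CCAAT.
Ccnb1, chr13:100786487-100786636, minus strand: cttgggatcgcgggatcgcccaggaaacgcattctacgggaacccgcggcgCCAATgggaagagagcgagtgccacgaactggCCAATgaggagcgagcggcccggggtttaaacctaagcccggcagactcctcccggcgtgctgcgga
Ccnb2, chr9:70421555-70421704, minus strand: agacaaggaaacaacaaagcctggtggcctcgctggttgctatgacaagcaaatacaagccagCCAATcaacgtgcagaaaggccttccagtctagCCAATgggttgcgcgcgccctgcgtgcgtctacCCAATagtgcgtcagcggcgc
Cdk1, chr10:69352913-69353062, minus strand: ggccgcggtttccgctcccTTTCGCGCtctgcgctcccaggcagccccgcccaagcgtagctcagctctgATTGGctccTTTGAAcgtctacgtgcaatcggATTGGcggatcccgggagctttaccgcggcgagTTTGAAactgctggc
Ccnf, chr17:24251410-24251559, minus strand: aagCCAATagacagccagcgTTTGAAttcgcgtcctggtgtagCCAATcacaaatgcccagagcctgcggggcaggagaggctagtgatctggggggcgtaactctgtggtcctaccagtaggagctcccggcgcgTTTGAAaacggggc
E2f3, chr13:29986064-29986213, minus strand: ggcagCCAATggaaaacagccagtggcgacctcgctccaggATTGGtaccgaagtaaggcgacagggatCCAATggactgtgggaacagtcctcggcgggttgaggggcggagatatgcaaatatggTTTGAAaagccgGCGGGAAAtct
Cdc25a, chr9:109875429-109875578, plus strand: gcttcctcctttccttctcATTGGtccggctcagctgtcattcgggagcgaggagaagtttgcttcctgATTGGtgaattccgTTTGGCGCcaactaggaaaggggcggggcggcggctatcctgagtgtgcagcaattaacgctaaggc
Ccne1, chr7:38107491-38107640, minus strand: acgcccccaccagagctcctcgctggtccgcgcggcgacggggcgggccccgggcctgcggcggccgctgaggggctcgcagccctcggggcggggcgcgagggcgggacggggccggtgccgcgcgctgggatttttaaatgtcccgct
Ccng1, chr11:40755287-40755436, minus strand: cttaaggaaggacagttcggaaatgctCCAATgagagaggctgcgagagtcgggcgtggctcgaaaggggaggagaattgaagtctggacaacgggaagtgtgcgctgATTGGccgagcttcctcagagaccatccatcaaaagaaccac
Within these stretches Ccnb1 holds 2 CCAAT matches, Ccnb2 holds 3, and Cdk1 holds 1 E2F match, 2 CHR matches and 2 CCAAT matches. Ccnf holds 2 CHR matches and 2 CCAAT matches. A match is a description of letters, not evidence of binding, and where none is found only these letters are missing from this window.

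Cyclins of transcription and splicing were higher for 3 of 7 members and lower for none, against 31.2% and 28.0% of all measured symbols, so the higher count is near the background. Their median log2 ratio was 0.53. Ccnk, the partner of CDK12 and CDK13, had 200 and 781 reads and was 3.73-fold higher (3.19 to 4.37). Ccnl1, a cyclin of splicing speckles, had 824 and 1884 reads and was 2.18-fold higher (2.01 to 2.37), and Ccnt2, a subunit of the elongation factor P-TEFb, had 1027 and 2247 reads and was 2.09-fold higher (1.94 to 2.25). The paralogs of these last 2 genes were called neither: Ccnl2 had a log2 ratio of 0.08 and Ccnt1 one of 0.53, which passed 2-fold with plain CPM at 1.08. Ccnh, the cyclin of the CDK-activating kinase, had a log2 ratio of 0.32. Ccnc, the cyclin of the Mediator kinase module, had 864 and 569 reads and a log2 ratio of -0.67. Ccnl2 was the most abundant of the 7 in both libraries, at 26.4 and 35.6 RPKM.

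Of 5 kinases of transcription, 2 were higher and 3 neither, a higher count near the 31.2% of all symbols. Cdk12, which phosphorylates elongating RNA polymerase II, had 1892 and 5410 reads and was 2.73-fold higher (2.59 to 2.88). Cdk9, the kinase of P-TEFb, had 462 and 1288 reads and was 2.66-fold higher (2.39 to 2.96), with an interval that overlaps that of Cdk12. Cdk13, the paralog of Cdk12, had a log2 ratio of 0.91 and, like Cdk6, passed 2-fold on 3 other scales, at 1.47 in plain CPM, 1.27 by header totals and 1.25 in RPKM. The Mediator kinases were not higher on this scale: Cdk8 had 1296 reads in each library and a log2 ratio of -0.07, and Cdk19 had 799 and 592 reads and one of -0.50. Both turned above 0 with plain CPM, to 0.49 and 0.06. Cdk7, the kinase that activates other CDKs, had 1499 and 2247 reads and a log2 ratio of 0.52, or 1.07 with plain CPM. Its deposited model is 7585 bases long, against 3706 exon bases in GENCODE, and overlaps the model of Ccdc125 (128 and 127 reads), so its level per length is uncertain.

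Of 5 atypical cyclins, 2 were higher, 1 lower and 2 neither, near the shares of all symbols. Ccng1, a target of p53, had 8852 and 4541 reads and was the most abundant member per length in the normal library, at 62.9 RPKM. At 2.04-fold lower (1.97 to 2.12) it lay just past the line, and its log2 ratio was -0.47 in plain CPM, -0.68 by header totals and -0.68 in RPKM. Ccng2, a cyclin of resting cells, had 649 and 667 reads and a log2 ratio of -0.03 that turned to 0.53 with plain CPM. Ccni had 4178 and 2450 reads and was 1.79-fold lower (1.70 to 1.88), with 14.2% of its 50-base stretches found in other genes, and Ccny, a membrane-bound cyclin that partners CDK14 and CDK16, had 3631 and 2163 reads and was 1.76-fold lower (1.67 to 1.86), both short of 2-fold. Ccnj had 110 and 478 reads and was 4.15-fold higher (3.36 to 5.15).

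Ccno, a cyclin needed for multiciliated cells, had 9 and 158 reads, or 0.119 and 2.54 RPKM, and was 16.7-fold higher (8.60 to 37.3). Of 7 markers of multiciliated cells, 4 were measured, 2 of them higher and 2 lower. Their summed level was 13.8 and 13.1 CPM. Of the higher markers, Foxj1, the regulator of motile cilia, had 8 and 158 reads and Tekt1 had 3 and 55. The lower markers were Cfap126, with 67 and 14 reads, and Dnah5, with 238 and 98. Below the minimum were Mcidas, a regulator that acts beside Ccno, with 0 and 3 reads, Ccdc78 with 0 and 1, and Deup1 with 16 and 2. The part of such cells in the Ccno value was not tested.

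The remaining CDKs included the member with the largest difference on the lower side. Cdk18, a kinase of the PCTAIRE subfamily, had 1108 and 275 reads, or 9.05 and 2.74 RPKM, and was 4.22-fold lower (3.70 to 4.84). It was called lower under each of 5 other scalings or counts. Cdk17, of the same subfamily, went the opposite way, with 372 and 1670 reads and a 4.28-fold higher level (3.83 to 4.80), and Cdk16, the remaining PCTAIRE gene, had 2077 and 1487 reads and a log2 ratio of -0.55, or 0.01 with plain CPM. Within the group of 8, Cdk17 went from 5.15% to 26.9% of the RPKM and Cdk18 from 18.4% to 5.31%. Cdk14, the partner kinase of cyclin Y, had 200 and 485 reads and was 2.31-fold higher (1.96 to 2.74). Cdk5, a kinase best known from neurons, had 709 and 457 reads and a log2 ratio of -0.70. Cdk10 and Cdk20 had log2 ratios of -0.47 and -0.42, which turned to 0.08 and 0.14 with plain CPM. Of the 50-base stretches of Cdk10, 10.7% occur in genes elsewhere, or 17.4% when genes that overlap it are included. Cdk15 had 1 and 8 reads.

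Other genes of the pathway are given by list, to be read against the 31.2% of all symbols that were higher and the 28.0% that were lower. Of 15 E2F targets of replication, 14 were higher, led by Mcm3, a subunit of the replicative helicase, at 75.2-fold (62.4 to 91.6) and Cdc6, a loader of that helicase, at 74.8-fold (48.8 to 121). Of 8 inhibitory, polo and aurora mitotic kinases and their regulators, 6 were higher and 2, Ensa and Arpp19, neither, led by Plk1 at 151-fold (84.1 to 303) and Aurkb at 67.1-fold (43.7 to 109). Of 17 cyclin ubiquitin ligase genes, 9 were higher and 8 neither, led by the ubiquitin-conjugating enzyme Ube2c at 87.8-fold (56.7 to 144) and Cdc20, the mitotic activator of the anaphase-promoting complex, at 79.0-fold (60.9 to 104). Of 7 measured CDK-binding subunits of 8, 5 were higher and 2, Cables1 and Cables2, neither. The small CDK-binding protein Cks1b was 57.3-fold higher (40.6 to 83.4). Cdk5r2, an activator of CDK5, had 0 and 38 reads. With the 0 set to a floor of 3 reads it was 12.1-fold higher, and the lower limit of its interval was 9.36. It met the minimum through the tumour library alone, which fixed its call as higher. Tfdp1, the DNA-binding partner of E2F, was 5.58-fold higher (5.08 to 6.14), and Tfdp2 had a log2 ratio of 0.90. Of 5 checkpoint genes, 4 were higher and 1, Atr, neither, led by Chek1 at 64.8-fold (42.7 to 104) and Trp53 at 9.86-fold (8.61 to 11.3).

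Of 8 CDK inhibitor genes, 4 were higher, 1 lower and 3 neither, beside 31.2% higher and 28.0% lower among all symbols. Cdkn3, a phosphatase of CDKs, had 7 and 140 reads and was 19.1-fold higher (9.02 to 48.3). Cdkn2a, which codes for an inhibitor of CDK4 and CDK6, had 0 and 20 reads. With the 0 set to the floor of 3 reads it was 6.36-fold higher, and the lower limit of its interval was 4.71. It met the minimum of 20 reads through the tumour library alone, which fixed its call as higher. The lower one was Cdkn2c, another inhibitor of CDK4 and CDK6, with 208 and 23 reads and a 9.48-fold lower level (6.15 to 15.3). Of 10 pocket protein and DREAM complex genes, 4 were higher, 3 lower and 3 neither, both counts near those background shares. Mybl2 was 115-fold (76.1 to 185) and Foxm1 31.7-fold higher (22.3 to 46.6), both activators of mitotic genes. The lower genes of this list were Rbl2, the pocket protein of resting cells, Rb1 and Lin52, with log2 ratios of -3.24, -1.18 and -1.19.

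Markers of cell types differed between the libraries beside these values, while 31.2% of all measured symbols were higher and 28.0% lower. All 8 proximal tubule markers were lower, with summed levels of 25038 and 834 CPM. All 6 markers of the loop and distal tubule (10550 and 55.9 CPM) and all 6 of the collecting duct (338 and 21.8 CPM) were lower too. All 9 pluripotent markers were higher, from 0.0829 to 1883 CPM, and 7 of them had 0 reads in the normal library. Of 8 germ line and meiosis markers, 7 were measured and all 7 were higher (0.871 and 113 CPM), beside 8 or fewer reads per library for Ccna1 and Ccnb3. Of 7 neural markers, 6 were higher and 1 lower (8.13 and 106 CPM), and Tubb3, Elavl4 and Snap25 had 0 reads in the normal library. Of 8 leukocyte markers, 5 were measured, 3 of them higher and 2 neither (80.9 and 120 CPM). Of 6 fibroblast markers, 3 were higher and 3 neither (267 and 779 CPM), of 6 endothelial markers 4 were lower and 2 neither (463 and 118 CPM), and of 4 podocyte markers 2 were lower and 2 neither (329 and 211 CPM). Of 6 erythroid markers, 4 were found, and the 3 that were measured were lower (219 and 62.2 CPM), one of them, Slc4a1, being also on the collecting duct list. The part of these shifts in the ratios of the members was not tested.

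All 54 models overlapped the gene of the same name on the same strand in GENCODE M21. Exons of a gene on the opposite strand overlapped 18 members, 5 of them over 10% of their exon bases, as given above. Of the 54 members, 32 share no 50-base stretch with genes elsewhere and 3 share over 10%.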

How the data were processed

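Total RNA of 1 normal kidney and 1 kidney tumour went into stranded libraries after removal of ribosomal RNA, per the labels' protocols. The authors deposited read counts over exons of 32958 UCSC knownCanonical gene models on mm10. Per the submitters' processing notes, the tools were HOMER, bcl2fastq and STAR 2.5.0c, whose roles are not stated. Deposited RPKM values matched counts per kilobase of transcript and header total, with a largest difference of 1.80e-06. No source used here states how reads with several matches were treated.

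The model with the most reads stood for each symbol. Symbols with at least 20 reads over both libraries were scaled with TMM (edgeR 4.0.16, R 4.3.3; factors 0.824 normal, 1.21 tumour). Exact conditional (Clopper-Pearson) 95% intervals came from the 2 counts, and no p-value was computed. Zeros took a floor of 3 counts per library (0.124 CPM normal, 0.119 CPM tumour). A gene with 0 normal reads that reached the minimum of 20 could therefore only be called higher. Ratios and calls were tested on simulated data. Python 3.11.15 with numpy 2.4.6, pandas 2.3.3, scipy 1.17.1 and matplotlib 3.10.9 was used. Alternatives were plain CPM, header totals, DESeq2 1.42.0 size factors, RPKM plus 0.1, summed models, other thresholds and other minimums. All members are named, with fuller values for members called at a mean of at least 1 CPM, and from each pathway list the 2 largest ratios, upward where both directions occurred; further genes named, among them Cdkn2c, Rbl2, Rb1, Lin52, Tfdp2 and single markers, were picked with their values in view. One gene of the replication list is not reported here. The members and lists were chosen with earlier results of these data known.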

Additional observations from a re-analysis of the deposited data

How the results depend on the processing

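Of the 51 measured members, 45 had the same call under plain CPM, header totals, DESeq2 size factors, RPKM plus 0.1 and summed models. The median log2 ratio of all measured symbols moved up by 0.56 (plain CPM), 0.35 (header totals) and 0.32 (RPKM), and higher calls went from 52.8% of all calls to 67.6%, 62.5% and 62.6%. The members' median moved from 1.21 to 1.77, 1.56 and 1.47. Plain CPM and header totals add a constant to every log2 ratio, so relative to all symbols the members' median stayed at 1.13 by construction. For RPKM it was 1.07. Among members called neither, 8 changed sign with plain CPM: Ccnd3, Ccng2, Cdk8, Cdk10, Cdk16, Cdk19, Cdk20 and E2f5. The lower count went from 2 to 1 under these 3 scalings, at 4-fold and with a minimum of 100 reads, and to 7 at 1.5-fold. The higher count went from 29 to 19 at 4-fold, and a minimum of 1 read added Cdk15. Shares of reads without division by length, in the normal and then the tumour library, were 74.8% and 35.8% for Ccnd1, 5.64% and 48.4% for Ccnd2, 19.6% and 15.7% for Ccnd3, 2.35% and 25.2% for Cdk1, and 68.5% and 62.0% for Cdk4. By reads, Ccnd2 leads the D-type cyclins of the tumour library. Depth limits members with under 10 normal reads (Ccnf, Ccno, E2f7 and E2f8), whose intervals are wide, and Ccna1, Ccnb3 and Cdk15 are too shallow to compare. No paired analysis was possible because each group has 1 library.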

Other observations

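Genes with a cyclin fold or a CDK-like kinase domain, or named for cyclins, that the symbol pattern leaves out numbered 10, of which 3 were higher, 3 lower and 4 neither, close to the 31.2% and 28.0% of all measured symbols. Ccnb1ip1, a ligase of meiotic recombination, had 1 normal read and 350 tumour reads, a ratio of 334 (interval 59.5 to 13225), beside the higher germ line markers given above. Ccnjl, the paralog of Ccnj, had 11 and 227 reads and was 19.7-fold higher (10.8 to 40.0). Cdkl1, a CDK-like kinase linked to cilia, had 2540 and 79 reads and was 33.7-fold lower (26.9 to 42.7), a wider difference than that of any member called lower. Cdkl2, its relative, had 538 and 150 reads and was 3.76-fold lower (3.13 to 4.54). Ccnyl1, the paralog of Ccny, had 204 and 429 reads and was 2.01-fold higher (1.69 to 2.38), while Ccny itself had a log2 ratio of -0.82. Ccndbp1, a cyclin D binding protein, was 2.30-fold lower (2.05 to 2.59). Cdk11b, a kinase that partners the L-type cyclins, had a log2 ratio of 0.47.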
